A study of Mus musculus with 4 samples.

Results

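The interferon-inducible p200 family is described here by 8 of its genes, Ifi203, Ifi204, Ifi206, Ifi207, Ifi209, Ifi211, Ifi213 and Mndal, out of the 32285 genes in the table. The genes were chosen by name, with their differences between treated and control mice already known, so every value of theirs in that comparison is a description and carries no test. The bone marrow came from C57BL/KawRij mice that had received 5TGM1-luc myeloma cells intravenously at 6 weeks of age, a model in which the tumor cells grow in an immunocompetent host. After 3 weeks the mice were given vehicle or 10 mg/kg PM (purinostat mesylate, an inhibitor of class I and IIb histone deacetylases) and the marrow was taken 24 h later. Each group held 2 mice, each with its own 10x Genomics 3′ library made after red cell lysis, and the tumor and the host strain were common to both groups.

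The p200 proteins belong to the PYHIN family. They carry a HIN domain that binds DNA, most of them also carry a pyrin domain for contacts with other proteins, and many of their genes are induced by interferons through their receptors, receptor-bound kinases and the transcription factors these activate. Aim2, a relative outside the 8 genes, senses DNA in the cytosol and assembles an inflammasome, and Ifi204 encodes p204, the mouse counterpart of human IFI16.

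The libraries held 69828595 to 109447030 unique molecular identifiers (UMIs, counted transcripts) over 8242 to 13848 cell barcodes, with 18 to 39 barcodes shared between pairs of libraries. After quality filters 39743 cells were kept, with median UMI counts per cell of 4717 to 6067, and 37790 of them fell into a cell type named from its markers. PYHIN genes were left out of the genes used for clustering. The UMIs of a type were added up within each mouse, for the 16 types that reached 10 cells in all 4 mice. Levels are given as CPM (counts of the gene scaled to 1000000 UMIs of that type and mouse). Each named cluster had at least 3 of the markers fixed for its type raised. The PM 1 library stood apart with the largest share of called doublets, 5.64% against 1.50% to 2.56% in the other libraries.

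The 8 genes lie within 474 kb of chromosome 1, at chr1:173468485-173942672 of GRCm38, with Ifi206 at the left end and Ifi203 at the right end. Ifi209 is on the plus strand and the other 7 genes are on the minus strand. Mndal (chr1:173849126-173942491) overlaps Ifi211 and Ifi203 on the same strand in the annotation, so the counts of these genes are uncertain in the shared stretches.

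To show what the promoters of the members share, the last 100 bases before the transcription start are printed below from RefSeq (GRCm38.p6), 5′ to 3′ on the gene's strand, for the 7 of 8 members with an entry. Capitals mark the core of the interferon-stimulated response element (ISRE), a DNA motif found in the promoters of many genes that type I interferons induce, or in Ifi209 the closest match to it.
Ifi206, chr1:173491319-173491418, minus strand: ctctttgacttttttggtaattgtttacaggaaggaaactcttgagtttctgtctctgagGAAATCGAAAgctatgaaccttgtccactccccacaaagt
Ifi213, chr1:173599273-173599372, minus strand: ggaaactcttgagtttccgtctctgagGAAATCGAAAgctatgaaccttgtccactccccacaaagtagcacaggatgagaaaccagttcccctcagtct
Ifi209, chr1:173630759-173630858, plus strand: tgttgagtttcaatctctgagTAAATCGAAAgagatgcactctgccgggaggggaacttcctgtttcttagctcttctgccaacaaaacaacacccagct
Ifi207, chr1:173741810-173741909, minus strand: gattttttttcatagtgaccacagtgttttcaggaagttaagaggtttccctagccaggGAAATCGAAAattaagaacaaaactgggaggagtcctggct
Mndal, chr1:173880188-173880287, minus strand: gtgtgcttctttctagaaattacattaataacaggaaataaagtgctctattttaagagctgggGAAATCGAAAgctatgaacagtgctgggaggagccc
Ifi211, chr1:173913047-173913146, minus strand: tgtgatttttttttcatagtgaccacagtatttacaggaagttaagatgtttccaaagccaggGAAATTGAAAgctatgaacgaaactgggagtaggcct
Ifi203, chr1:173942493-173942592, minus strand: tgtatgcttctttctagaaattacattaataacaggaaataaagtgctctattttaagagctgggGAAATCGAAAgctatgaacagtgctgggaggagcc

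The searched core was GAAANNGAAA on either strand within 250 bases before the start. It was present in 6 of the 7 members, counted by gene over their 9 promoter records, and in 2.98% of all 32851 promoter records. In 5 members (Ifi203, Ifi206, Ifi207, Ifi213 and Mndal) the letters were GAAATCGAAA, a string found in 13 records of the whole table, or 0.0396%, of which 7 belong to PYHIN genes. Ifi211 carried GAAATTGAAA. Ifi209 carried TAAATCGAAA at 79 bases from the start, which differs from the common string by the substitution G1T, counted from the 5′ end of the string. The distance from the core to the start was 35 to 41 bases in Ifi203, Ifi206, Ifi207, Ifi211 and Mndal, and 73 bases in Ifi213. Another start of Mndal, not printed, had a core at 54 bases, and another start of Ifi203, also not printed, had no core. The gamma-activated site TTCNNNGAA, present in 7.02% of all promoters, and the ETS box GAGGAAGT, present in 2.44%, were found in none of the 7 members. A match of letters is a description of the sequence and was not tested as a binding site.

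Reads at the 3′ end cannot always be told apart between near-identical genes, and the members differed in this respect. Of the 90-base windows in the last 500 bases of its transcripts, Ifi211 shared 59.4% with Ifi205 and Ifi209 shared 37.1% with Ifi214. Mndal shared 8.06% with other PYHIN genes, and Ifi213 shared 7.54% with Ifi208. Ifi203, Ifi204, Ifi206 and Ifi207 shared no window. Values of Ifi211 and Ifi209 are uncertain for reads from the shared windows, and the same holds for Mndal, Ifi211 and Ifi203 where they overlap. Whether such reads were lost or counted was not tested.

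In vehicle mice the summed p200 level was highest in dendritic cells, lymphocytes and monocytes and lowest in neutrophils and erythroid cells. Conventional dendritic cells (cDC) had 871 CPM in vehicle 1 and 1241 CPM in vehicle 2, B cells 1052 and 939.5 CPM, and T cells 1002 and 727 CPM. Monocytes and their progenitors followed with 859 and 814 CPM, plasmacytoid dendritic cells (pDC) with 767 and 765 CPM, NK cells with 641 and 763 CPM, and macrophages with 837 and 482 CPM. The ranges of the 2 mice overlapped among cDC, B and T cells, between T cells and monocytes, and between NK cells and macrophages, so these neighbors in the order were not separated beyond their spread. Monocytes lay above pDC in both mice, and pDC above NK cells, the latter by a narrow gap of 765 against 763 CPM at the closest. Types further apart in the order overlapped too, as T cells spanned pDC and macrophages overlapped monocytes and pDC. A middle group held CXCL12-abundant reticular (CAR) stromal cells at 331 and 396 CPM, stem and progenitor cells (HSPC) at 345 and 338 CPM, and the clonal plasma cells at 310.2 and 293 CPM. Early neutrophils had 140.3 and 142 CPM. They were named from Elane, Mpo, Prtn3, Ctsg and Ms4a3 and are a mix of progenitors. In part of their clusters the marker list of monocytes or of HSPC scored highest. Over all mice their clusters ran from 32.6 CPM to 441 CPM. Eosinophil and basophil progenitors had 86.0 and 154 CPM, the other plasma cells 86.6 and 99.1 CPM, and the cluster named megakaryocytes 103 and 56.3 CPM. That cluster was led by the platelet genes Pf4 and Ppbp together with Car1, Car2, Ermap and Aqp1 of red cell progenitors, so its values are those of a mixed cluster and are not compared further. Neutrophils had 20.9 and 22.8 CPM and erythroid cells 12.8 and 12.2 CPM, and both mice of each lay below every type ranked above it.

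**Figure D1:**
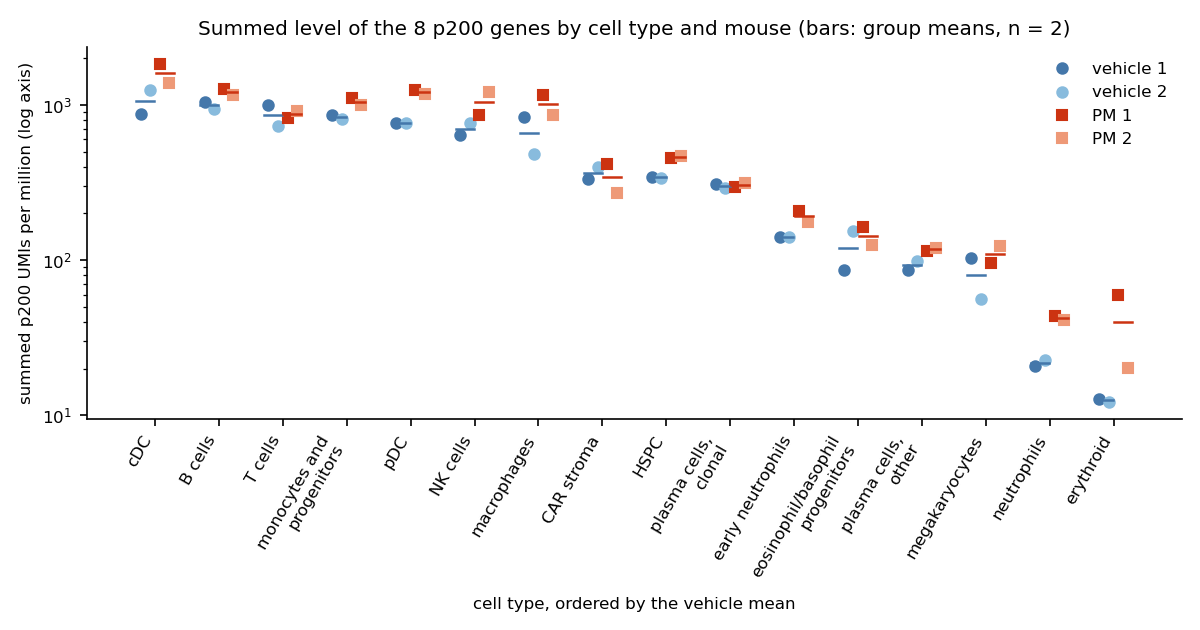
Summed level of the 8 p200 genes (y axis, CPM on a log scale) in each of 16 cell types (x axis), with 1 point per mouse, colored by treatment. In the 2 vehicle mice the level ran from 12.2 to 12.8 CPM in erythroid cells to 871 and 1241 CPM in cDC, and the PM mice lay above both vehicle mice in 11 of the 16 types. The share of all genes with such an order of the mice was not counted, so nothing is read from the 11.

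Each type was then compared with the mean of the other 15 types within the vehicle mice, a contrast that did not enter the choice of genes (edgeR quasi-likelihood test on all 4 mice with mouse as a block, Benjamini-Hochberg adjusted p under 0.05 and a log2 difference over 0.5). Of the 128 pairs of member and cell type, 51 were higher, against a background of 21.8% over all genes and types, and 21 were lower, against 8.12%. All 8 members were higher in cDC and in monocytes, whereas erythroid cells had 4 lower members and none higher. In cDC, with 23 and 41 cells in the vehicle mice, the calls of Ifi204, Ifi206, Ifi211 and Ifi213 were lost when vehicle 2 was left out, and that of Ifi213 also when vehicle 1 was. The count of lower pairs was 5 without vehicle replicate 2 and 11 when the cells were clustered at the finer resolution, and the cause was not tested.

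The 8 genes are described in 3 groups by where their levels were high. Ifi203, Mndal and Ifi209 were high in lymphocytes as well as in myeloid cells. Ifi203 had 349 and 295 CPM in B cells, 419 and 286 in T cells, 283 and 323 in pDC and 187 and 177 in HSPC, and it was called higher in all 4 (edgeR quasi-likelihood test, Benjamini-Hochberg adjusted p = 4.53e-14 in B cells and 1.2e-14 in T cells). Mndal, named for its similarity to human MNDA, had 335 and 297 CPM in B cells, 298 and 217 in T cells and 143 and 145 in HSPC, and was likewise higher in these types. Ifi209 differed from both in HSPC, with 8.49 and 8.93 CPM, where it was lower than the mean of the other types (adjusted p = 0.00116, a call lost without vehicle replicate 2). In early neutrophils, the mixed group of progenitors, Ifi209 had 44.2 and 49.3 CPM and was the member called higher (adjusted p = 2.85e-07).

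Ifi206 and Ifi213 had their highest levels in T cells or, in 1 mouse each, in NK cells and the clonal plasma cells. Ifi206 had 99.0 and 83.4 CPM in T cells, 40.0 and 114 in NK cells and 37.8 and 32.2 in B cells, against 12.0 and 8.22 in monocytes, while cDC with 10.1 and 40.4 CPM overlapped the B cells. Ifi213 had 56.9 and 22.7 CPM in T cells and 17.4 and 12.4 in B cells, against 10.1 and 6.63 in monocytes and their progenitors. By stage Ifi213 had 21.5 and 16.9 CPM in classical monocytes, which overlapped the B cells, and 2.21 and 0.971 CPM in cycling progenitors. Both genes were also called higher in monocytes than in the mean of the other types.

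Ifi204, Ifi207 and Ifi211 were high in monocytes, macrophages and cDC and near 0 in B cells. Ifi204 had 174 and 141 CPM in monocytes, 209 and 93.8 in macrophages and 50.7 and 114 in cDC, but 0 and 0.957 CPM in B cells, where it was called lower (edgeR quasi-likelihood test, Benjamini-Hochberg adjusted p = 0.000574, a call lost without either vehicle replicate). Ifi207 had 125 and 109 CPM in monocytes, 233 and 158 in macrophages, 172 and 162 in cDC and 44.6 and 24.6 in pDC, against 0 and 0.319 in B cells. Ifi211 had 92.9 and 88.5 CPM in monocytes and 78.9 and 24.1 in macrophages, against 1.45 and 0.319 in B cells. It was not limited to myeloid cells, with 69.8 and 55.8 CPM in the clonal plasma cells and 32.6 and 14.0 CPM in the other plasma cells, and was called higher in both (adjusted p = 1.11e-08 and 1.18e-05, the latter call lost without vehicle replicate 1). In B and T cells the p200 transcripts were mostly those of Ifi203, Ifi206, Ifi209, Ifi213 and Mndal.

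**Figure D2:**
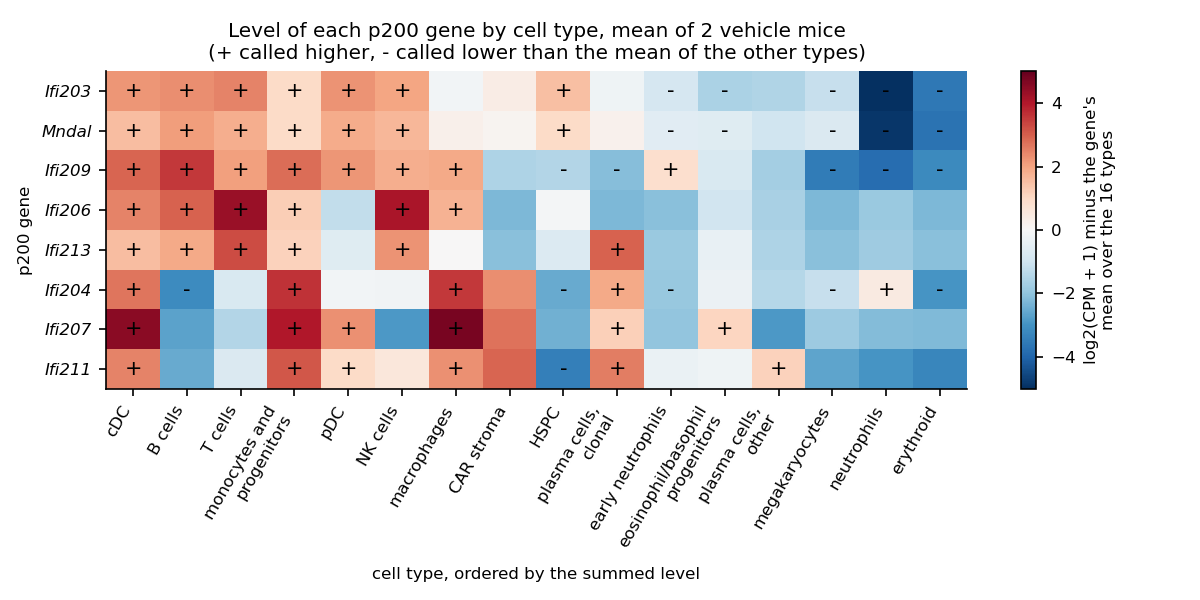
Level of each p200 gene (rows) in the 16 cell types (columns), as log2(CPM + 1) of the mean of the 2 vehicle mice minus the gene's own mean over the types, with plus and minus signs for the 51 higher and 21 lower calls. Ifi204, Ifi207 and Ifi211, at 1.45 CPM or less in B cells, stand apart in the B cell column from the other 5 genes.

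Plasma cells were divided into a clone and the rest. Of the clonal cells with a light chain V gene, 98.75% were led by Igkv10-96, whereas the leading V gene of the other plasma cells held 12.5%. The clone carried Ifi204 at 49.6 and 45.3 CPM in the vehicle mice, against 4.07 and 3.74 CPM in the other plasma cells. Ifi213 stood at 29.5 and 34.8 CPM in the clone and at 0 and 0.935 CPM in the rest, and Ifi207 at 23.3 and 8.89 CPM in the clone and at 0 in both mice in the rest. The direct difference between the plasma groups was not tested. The denominator bears on it, since leaving immunoglobulin and neutrophil transcripts out of the total moved the mean summed level of the vehicle mice from 92.9 to 242 CPM in the other plasma cells, and from 302 to 317 CPM in the clone. In neutrophils the same change moved it from 21.9 to 34.4 CPM. Against the mean of the other types the clone was higher in Ifi204, Ifi207, Ifi211 and Ifi213 (edgeR quasi-likelihood test, Benjamini-Hochberg adjusted p = 4.95e-05, 0.000709, 1.11e-08 and 6.71e-14) and lower in Ifi209, which had 4.65 and 5.66 CPM (adjusted p = 0.000436, a call lost without vehicle replicate 2). Ifi206 had no UMI in the clone of either vehicle mouse, which is at or under the floor of 3 counts.

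Maturation also separated the neutrophils. Immature neutrophils of the vehicle mice had a summed p200 level of 5.04 and 5.15 CPM and mature neutrophils 49.0 and 67.8 CPM. Ifi204 made up most of the latter, with 42.0 and 60.3 CPM in mature against 1.23 and 1.36 CPM in immature cells, and it was the sole member called higher in neutrophils than in the mean of the other types (edgeR quasi-likelihood test, Benjamini-Hochberg adjusted p = 2.01e-07). In monocytes the level was 503 and 545 CPM in cycling progenitors, 1380 and 1316 CPM in classical monocytes and 648 and 489 CPM in non-classical monocytes, which overlapped the cycling progenitors. In B cells the level was 912 and 794 CPM in early and 1167 and 1146 CPM in mature cells. These differences between stages were not tested.

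Depth bears on the share of cells in which the genes were found, and the amount of free RNA was not estimated. With each cell thinned to 1000 UMIs, a p200 UMI was found in 56.9% and 53.7% of monocytes and 59.5% and 59.7% of B cells of the vehicle mice, against 98.5% and 97.2% and 84.1% and 85.6% without thinning. Erythroid cells, taken as the type that should lack the genes though this was not tested, had 1.77% and 1.81%, and neutrophils 3.31% and 3.53%. Median depths were 10807 and 11149 UMIs in monocytes, 5549 and 4866 in erythroid cells and 5656 and 5997 in neutrophils. Thinning left out 19 and 42 erythroid cells and 39 and 39 neutrophils of the vehicle mice for too few UMIs. In neutrophils Ifi203 had 0.805 and 0.908 CPM, Ifi209 had 0.984 and 0.838 CPM and Mndal had 1.48 and 1.61 CPM. These values were below those in erythroid cells of the same mice, so expression and free RNA could not be told apart.

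With PM the summed p200 level was higher in both PM mice than in both vehicle mice in 11 of 16 types and overlapped in 5, with no type lower in both. How often all genes had such an order of the mice was not counted, so nothing is read from the 11. Over the 84 pairs of member and type that passed the filter on low counts, of 128 in all, 74 log2 fold changes were above 0 and the median was 0.54, against -0.00 over all genes. Of the 84 pairs 8 were called higher, beside 0.911% of all gene and type pairs, and 0 were called lower in the 16 types, beside 0.398%. As the genes were chosen on this contrast, nothing is read from these counts. With edgeR 2 of the 10 pairs below 0 and 40 of those above 0 had an unadjusted p under 0.05, and DESeq2 called 0 lower. The share of all genes under that p was not counted, and nothing is read from these counts either. The count of higher pairs was 15 when vehicle 1 was left out, 5 when PM 1 was left out, and 18 with no filter on low counts. Erythroid cells, the type taken as background, were among the 11 types, with a sum of 12.8 and 12.2 CPM with vehicle and 59.6 and 20.3 CPM with PM. In these cells 5 of 69 tested genes of the interferon pathway list described below were called higher with PM, beside 46 of 9807 of all genes. The part of free RNA in erythroid cells and in the other types was not tested. With cells thinned to 1000 UMIs, the share of pDC with a p200 UMI was 64.6% and 61.0% in the PM mice, against 49.0% and 39.0% in the vehicle mice (97.2% and 93.7% against 90.8% and 89.7% without thinning), and that of erythroid cells was 4.55% and 3.69% against 1.77% and 1.81%. Thinning left out 0 and 0 pDC of the vehicle mice and 1 and 4 of the PM mice.

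**Figure D3:**
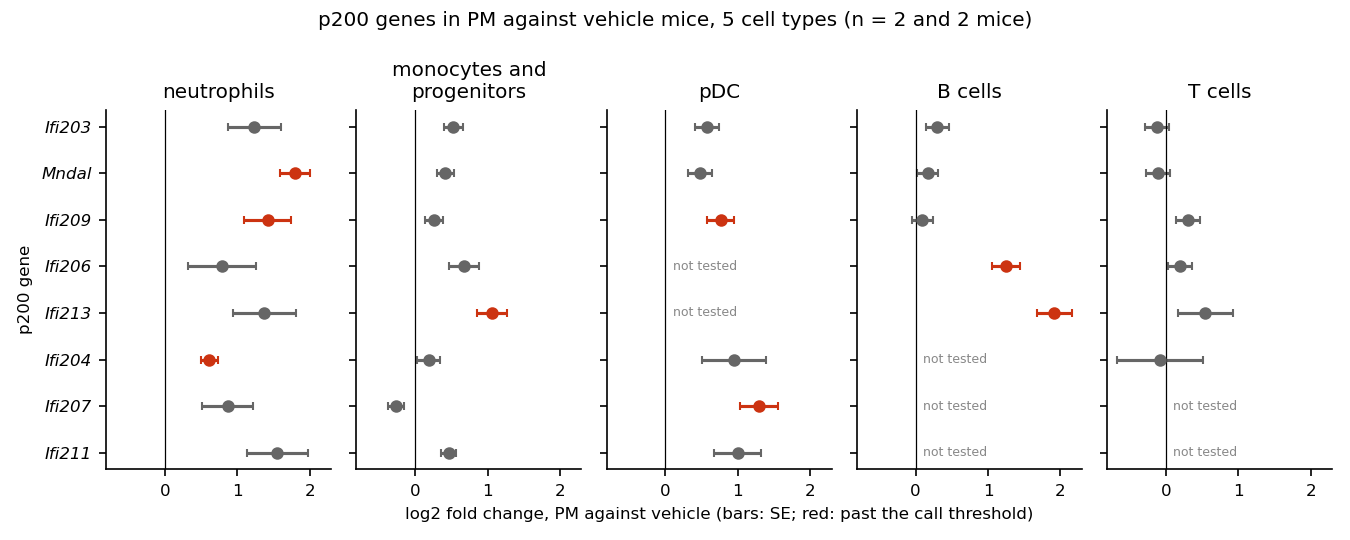
Log2 fold change of each p200 gene (y axis) with PM against vehicle (x axis, points, with SE bars, 2 mice per group) in 5 cell types, with the 8 called pairs in red. In neutrophils all 8 values lie above 0, from 0.62 for Ifi204 to 1.80 for Mndal, whereas the T cell values lie from -0.12 to 0.55.

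Mndal had both PM mice above both vehicle mice in 14 of 16 types, with a median log2 fold change of 0.42. For Ifi206 this held in 12 types, for Ifi209 in 10 types and for Ifi203 and Ifi213 in 9 types each. These counts include types where a gene did not pass the filter on low counts, which Ifi206 passed in 6 types. The count of Mndal also includes erythroid cells, taken as background, and neutrophils, where its level was below the erythroid level. The share of all genes with such an order of the mice was not counted, here or in the types below, so nothing is read from these counts. Ifi211 was higher in both PM mice in 7 types and Ifi204 in 6 types. Ifi207 was higher in both PM mice in 5 types and lower in both in 2 types. Among the members the median log2 fold change over the types tested ran from 0.16 for Ifi207 to 1.37 for Ifi213.

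In pDC, the cells known for producing type I interferon, all 8 members were higher in both PM mice and the sum went from 767 and 765 CPM to 1254 and 1175 CPM. For Ifi206 this rested on 0 and 2 UMIs with vehicle and 3 and 2 UMIs with PM, and it was not tested. Ifi207 went from 44.6 and 24.6 CPM to 77.8 and 86.3 CPM, a log2 fold change of 1.29 ± 0.26 (SE, 2 mice per group). Ifi209 went from 122 and 124 CPM to 232 and 193 CPM (0.76 ± 0.18). These 2 pairs were the ones called, beside 1.03% of all genes in pDC, and neither was called by DESeq2. Without vehicle replicate 2 the value of Ifi207 was 0.85 and it was no longer called, and Ifi209 lost its call when vehicle 1 (0.74), vehicle 2 (0.78) or PM 1 (0.60) was left out and when called doublets were (0.79). Ifi203 had 283 and 323 CPM with vehicle and 462 CPM in both PM mice (0.58 ± 0.16), and Ifi211 had 16.5 and 23.6 CPM against 46.7 and 37.5 CPM (1.00 ± 0.33). The summed transcripts of a list of neutrophil genes moved in the same direction in pDC, from 3007 and 1125 CPM to 9214 and 11149 CPM. Their part in the result was not tested.

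In B cells 7 of the 8 members were higher in both PM mice. Of these, Ifi204, Ifi207 and Ifi211 did not pass the filter on low counts, with 0 to 3 UMIs in each vehicle mouse and 5 to 11 in each PM mouse. Ifi206 had 37.8 and 32.2 CPM with vehicle and 86.0 and 73.7 CPM with PM (log2 fold change 1.24 ± 0.19), and Ifi213 had 17.4 and 12.4 CPM against 50.8 and 52.5 CPM (1.92 ± 0.24). Both were called, beside 2.64% of all genes in B cells. The abundant members were not called, with Ifi203 at 349 and 295 CPM against 428 and 359 CPM (0.30 ± 0.16), Ifi209 at 311 and 301 CPM against 351 and 301 CPM (0.09 ± 0.15) and Mndal at 335 and 297 CPM against 341 and 367 CPM (0.17 ± 0.14).

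B cells of different stages differed in direction. In mature B cells Ifi209 had 286 and 278 CPM with vehicle and 415 and 344 CPM with PM, whereas in early B cells it had 340.4 and 317 CPM with vehicle and 184 and 220.2 CPM with PM (-0.65 ± 0.17 on the log2 scale). In the fit by stage the latter was called lower, beside 4.94% of all genes in early B cells. Ifi206 and Ifi213 were higher in both PM mice at both stages. The log2 fold change of Ifi206 was 0.68 ± 0.35 in early and 0.95 ± 0.20 in mature cells. That of Ifi213 was 1.11 ± 0.54 and 1.57 ± 0.26. Early cells numbered 81 of 239 and 463 of 958 B cells in the vehicle mice, against 160 of 1430 and 120 of 739 in the PM mice. The share of stages was not held fixed in the type-level B cell values, including those of other genes below. The makeup of the early B cells moved with the treatment: the cluster with the highest p200 level among them held 357 vehicle cells and 107 PM cells, and within it the summed level was 1248 and 1125 CPM with vehicle and 1755 and 1732 CPM with PM. Within another early cluster the order was the opposite, with 675 and 522 CPM against 472 and 469 CPM.

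**Figure D4:**
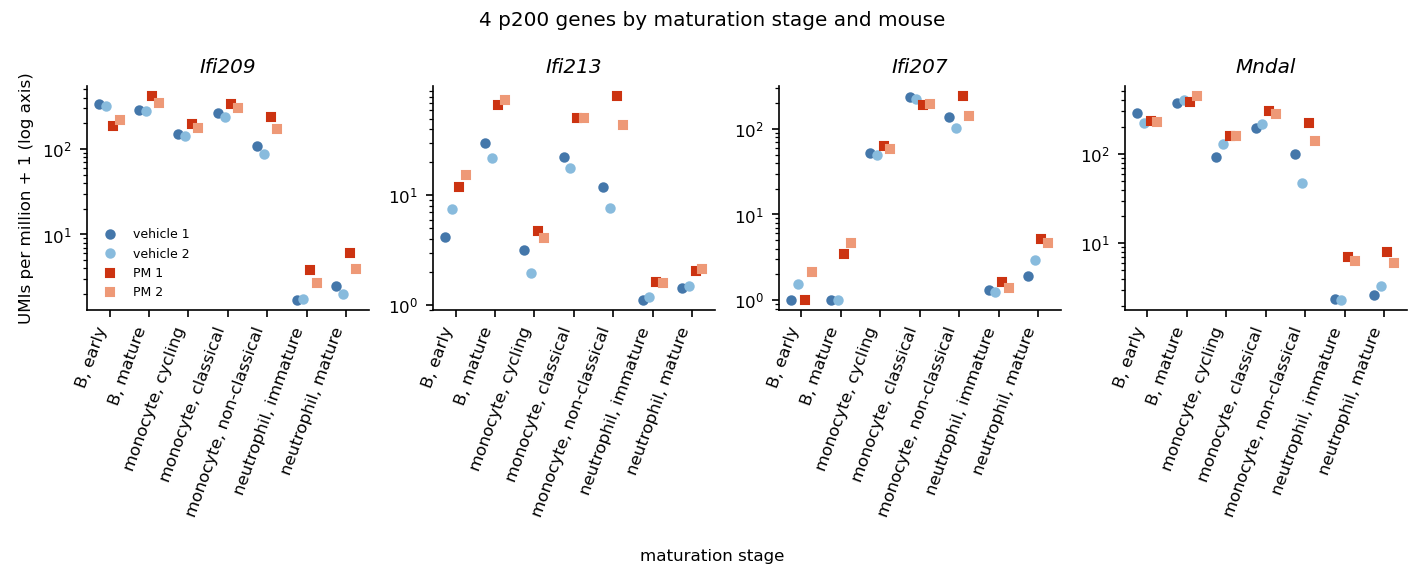
Levels of Ifi209, Ifi213, Ifi207 and Mndal (y axis, CPM + 1 on a log scale) by stage of B cells, monocytes and neutrophils (x axis), with 1 point per mouse. For Ifi209 the PM mice lie below the vehicle mice in early B cells and above them in mature B cells, and for Ifi207 they lie below in classical monocytes and above in cycling and non-classical monocytes.

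In monocytes and their progenitors 6 members were higher in both PM mice, 1 overlapped and Ifi207 was lower in both. Ifi213 had 10.1 and 6.63 CPM with vehicle and 18.4 and 17.6 CPM with PM (log2 fold change 1.06 ± 0.20) and was the member called, beside 0.913% of all genes, though no longer when PM 1 (0.98) or PM 2 (1.14) was left out. Ifi203 had 114 and 131 CPM against 193 and 167 CPM (0.52 ± 0.13). Ifi207 had 125 and 109 CPM with vehicle and 101 and 98.5 CPM with PM (-0.27 ± 0.11), and by stage it was lower in both PM mice in classical monocytes, with 232 and 219 CPM against 186 and 192 CPM. In cycling progenitors Ifi207 had 51.3 and 48.7 CPM against 61.1 and 56.9 CPM. In classical monocytes the log2 fold change was 1.36 ± 0.18 for Ifi213 and 0.96 ± 0.18 for Ifi206. In cycling progenitors that of Ifi211 was 0.75 ± 0.11. These were called higher in the fit by stage, but the share of all genes called at these stages was not counted, so nothing is read from the calls. The share of stages within the type was not held fixed in the type-level value.

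In neutrophils all 8 members were higher in both PM mice and the sum went from 20.9 and 22.8 CPM to 43.4 and 41.3 CPM. Ifi204 had 15.96 and 17.98 CPM with vehicle and 27.2 and 28.9 CPM with PM (log2 fold change 0.62 ± 0.11). Mndal had 1.48 and 1.61 CPM against 6.16 and 5.32 CPM (1.80 ± 0.21), and Ifi209 had 0.984 and 0.838 CPM against 3.24 and 2.01 CPM (1.42 ± 0.33). These 3 were called, beside 4.94% of all genes in neutrophils. Ifi204 was not called without vehicle replicate 1 (0.54), and Ifi209 lost its call when vehicle 1 (1.57), vehicle 2 (1.30) or PM 1 (0.98) was left out, when called doublets were (1.34), and with cells clustered on PYHIN genes too (1.27) or at resolution 2 (1.35). In erythroid cells, taken as background without a test, Mndal was at 4.73 and 4.73 CPM with vehicle and 23.3 and 9.69 CPM with PM. There Ifi209 was at 1.35 and 2.50 against 7.97 and 2.42 CPM, and Ifi203 at 6.08 and 2.78 against 10.3 and 2.72 CPM. Ifi203 in neutrophils, at 0.805 and 0.908 against 2.77 and 1.50 CPM, was likewise below its erythroid level in every mouse. Against this untested background the neutrophil levels of Mndal, Ifi209 and Ifi203 could not be read as expression or as free RNA. In erythroid cells the summed neutrophil transcripts went from 21335 and 12636 CPM with vehicle to 41165 and 34507 CPM with PM. Their part in the erythroid levels was not tested. Ifi204 in erythroid cells, at 0 and 1.39 against 8.56 and 3.33 CPM, was below its neutrophil level in every mouse. By stage Ifi204 had 1.23 and 1.36 CPM with vehicle and 6.04 and 5.34 CPM with PM in immature neutrophils (log2 fold change 2.07 ± 0.24), which overlaps the erythroid values, and 42.0 and 60.3 CPM against 116 and 109.9 CPM in mature neutrophils (1.17 ± 0.17). In the fit by stage both were called higher, beside 6.57% of all genes in immature and 9.75% in mature neutrophils. The change of Ifi204 over all neutrophils was thus smaller than at either stage. Mature cells numbered 3516 of 6119 and 1875 of 3747 neutrophils in the vehicle mice, against 2775 of 7016 and 2195 of 5359 in the PM mice. The share of stages was not held fixed in the type-level neutrophil values, including those of other genes below.

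The neutrophil clusters were divided by treatment, which bears on these values. PM cells made up 94.1% of the cells in a mature cluster with 231 CPM of p200 transcripts and 90.6% of a mature cluster with 82.9 CPM, and 7.51% and 10.4% of mature clusters with 93.0 and 24.9 CPM. Within the mature cluster at 231 CPM, which held 153 vehicle cells and 2432 PM cells, the level was 643 and 255 CPM in the vehicle mice, from 28 and 125 cells. In the PM mice it was 232 and 215 CPM. Within the other mature cluster made up mostly of PM cells the values were 103 and 104 CPM with vehicle and 80.3 and 81.4 CPM with PM. In the mature clusters made up mostly of vehicle cells the groups overlapped. The cluster at 93.0 CPM had 88.4 and 101 CPM with vehicle and 14.4 and 138 CPM with PM. The cluster at 24.9 CPM had 19.2 and 35.6 CPM against 45.9 and 22.2 CPM. In the immature clusters that both groups shared, the PM mice were higher, as in a cluster with 1014 vehicle and 1252 PM cells, where the level was 4.44 and 4.72 CPM with vehicle and 19.7 and 13.8 CPM with PM. Over all mature neutrophils the summed level was higher in PM mice, at 141 and 128 CPM against 49.0 and 67.8 CPM. The part of the different distribution of the cells over clusters in this, and in the neutrophil values of other genes below, was not tested.

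In T cells no member was called, beside 0.177% of all genes, and edgeR gave no member an unadjusted p under 0.05 and DESeq2 called 0. The sum had 1002 and 727 CPM with vehicle and 827 and 915 CPM with PM. Ifi203 had 419 and 286 CPM against 317 and 329 CPM (log2 fold change -0.12 ± 0.16) and Ifi206 had 99.0 and 83.4 CPM against 99.4 and 108 CPM (0.19 ± 0.17). For the sum, the vehicle mice differed more from each other than the groups did.

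The other types held no called member. In macrophages the sum went from 837 and 482 CPM to 1163 and 868 CPM, and Ifi213 from 3.95 and 2.68 CPM (1 UMI in each mouse) to 55.2 and 50.2 CPM (18 and 14 UMIs). In HSPC it went from 345 and 338 CPM to 452 and 472 CPM, with Ifi203 at 187 and 177 CPM against 230 and 252 CPM (log2 fold change 0.40 ± 0.13). NK cells had 641 and 763 CPM against 867 and 1214 CPM, and cDC had 871 and 1241 CPM against 1839 and 1380 CPM. The summed neutrophil transcripts went from 53200 and 115857 CPM to 129599 and 119782 CPM in macrophages, from 2764 and 1868 CPM to 3471 and 3560 CPM in HSPC and from 1261 and 783 CPM to 2435 and 1462 CPM in cDC. They were lower in both PM mice in NK cells, with 18799 and 17787 CPM against 8385 and 3259.8 CPM. Their part in the results of these types was not tested.

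The summed level of the clonal plasma cells overlapped between the groups, at 310.2 and 293 CPM with vehicle and 296 and 316 CPM with PM. The groups also overlapped in T cells, CAR stromal cells and eosinophil and basophil progenitors. In the clone Ifi213 had 29.5 and 34.8 CPM against 24.7 and 18.3 CPM (log2 fold change -0.57 ± 0.30). Ifi207 had 23.3 and 8.89 CPM against 7.10 and 4.17 CPM (-1.23 ± 0.51), and both genes were lower in the 2 PM mice. Ifi209 went the other way, from 4.65 and 5.66 CPM to 18.5 and 10.0 CPM (1.50 ± 0.52). The clone numbered 21 and 28 cells in the vehicle mice and 91 and 31 cells in the PM mice, which limits the precision of these values.

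Of 7 other PYHIN genes looked for, 5 were in the table and 4 had UMIs, Ifi202b being listed at 0. In vehicle mice Ifi208 and Ifi214 were called higher in B, T and NK cells, like Ifi206 and Ifi213, and Ifi205 in cDC, macrophages, monocytes and pDC, like Ifi207 (edgeR quasi-likelihood test, Benjamini-Hochberg adjusted p = 3.03e-23 for Ifi208 in T cells and 4.84e-16 for Ifi205 in cDC). With PM, Aim2 rose in neutrophils from 5.81 and 6.18 CPM to 13.2 and 12.8 CPM (log2 fold change 1.01 ± 0.14, edgeR quasi-likelihood test, Benjamini-Hochberg adjusted p = 0.00452). In erythroid cells, taken as background without a test, Aim2 was at 8.78 and 5.56 CPM with vehicle and 8.56 and 6.96 CPM with PM. Ifi205 rose in pDC from 18.2 and 9.84 CPM to 65.5 and 42.0 CPM (2.03 ± 0.36, adjusted p = 0.000472). Without vehicle replicate 2 Ifi205 was not called (1.57, adjusted p = 0.055). In B cells Ifi208 rose from 13.1 and 17.9 CPM to 42.9 and 37.2 CPM (1.27 ± 0.24, adjusted p = 0.00412) and Ifi214 from 17.4 and 27.8 CPM to 86.5 and 52.1 CPM (1.49 ± 0.30, adjusted p = 0.0192). Each of these 4 genes was higher in both PM mice than in both vehicle mice in the type named. Ifi205 shares 29.7% of its 3′ windows with Ifi211 and Ifi214 20.6% with Ifi209, so these values may not be independent of the members.

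The wider interferon pathway was read from a list of 102 genes by role, 97 of them in the table. Over the 16 types 69 of 1003 tested pairs rose and 2 fell, beside the 0.911% and 0.398% of all gene and type pairs given above. The median of the log2 fold changes was 0.27, against -0.00 for all genes. The number that rose was 19 of 82 tested in neutrophils, 19 of 80 in B cells, 12 of 65 in pDC and 9 of 85 in monocytes, beside 4.94%, 2.64%, 1.03% and 0.913% of all genes in these types. In T cells 0 of 75 were called with edgeR and 0 with DESeq2, while 15 had an unadjusted p under 0.05 with edgeR. The share of all T cell genes under that p was not counted, so nothing is read from the 15. The total of 69 became 160 when vehicle 1 was left out, 105 when PM 2 was, and 41 when PM 1 was. The total of 2 became 31 when vehicle 2 was left out, 6 when vehicle 1 was, and 7 when PM 2 was.

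Of the antiviral effectors tested, 13 of 34 rose in neutrophils, 14 of 33 in B cells, 8 of 36 in monocytes and 9 of 25 in pDC, to be read beside the same shares of all genes. Rsad2 (viperin) rose in neutrophils from 40.6 and 29.3 CPM to 145 and 142 CPM (log2 fold change 1.93 ± 0.17, edgeR quasi-likelihood test, Benjamini-Hochberg adjusted p = 0.000914) and in monocytes from 7.28 and 11.3 CPM to 38.7 and 38.1 CPM (2.03 ± 0.20, adjusted p = 0.00522, and 1.97 with adjusted p = 0.129 without PM replicate 1). Slfn5 rose in B cells (1.72 ± 0.20) and in neutrophils (2.04 ± 0.27). Bst2 (tetherin) and Ifitm3, both of which restrict viruses at membranes, rose in B cells (1.26 ± 0.22 and 1.05 ± 0.28), Slfn8 rose in neutrophils (1.69 ± 0.14), and Lgals3bp and Cmpk2 rose in monocytes (1.06 ± 0.12 and 0.86 ± 0.15). Several of these calls were lost when 1 library was left out. Without PM replicate 1 the calls of Slfn5 in neutrophils (2.03), Ifitm3 (0.55), Lgals3bp (0.97) and Cmpk2 (1.00) were lost, as were those of Slfn5 in neutrophils (2.06) and Cmpk2 (0.72) without PM replicate 2. Without vehicle replicate 2 those of Bst2 (0.81) and Ifitm3 (1.03) were lost. Usp18, which removes ISG15 and dampens receptor signaling, rose in monocytes from 10.7 and 11.5 CPM to 32.2 and 25.8 CPM (1.37 ± 0.17, and 1.14 and not called without PM replicate 1).

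No receptor or kinase was called in neutrophils, monocytes, B cells, T cells or pDC, and no interferon ligand had enough UMIs to be tested in neutrophils, monocytes, B cells or pDC. Among transcription factors, 3 of 9 rose in neutrophils, with Irf7 at 15.9 and 13.8 CPM against 31.6 and 28.2 CPM (log2 fold change 0.90 ± 0.13) and Irf9 at 67.1 and 56.1 CPM against 91.3 and 100.04 CPM (0.52 ± 0.12). Irf9 was not called without vehicle replicate 1 (0.67) or vehicle replicate 2 (0.38). Among the nucleic acid sensors, Zbp1 rose in B cells (0.91 ± 0.26), but lost its call when vehicle 2 (0.51), PM 1 (0.83) or PM 2 (0.98) was left out. No inflammasome partner (Pycard, Casp1, Gsdmd and others) was called in neutrophils, monocytes, B cells, T cells or pDC. The 2 genes that fell, named after their values were seen, were Lgals9 in B cells, from 317 and 352 CPM to 192 and 215 CPM (-0.73 ± 0.14, edgeR quasi-likelihood test, Benjamini-Hochberg adjusted p = 0.00528), and the RNA sensor Tlr7 in monocytes, from 22.5 and 25.8 CPM to 14.4 and 13.03 CPM (-0.83 ± 0.15, adjusted p = 0.0348), the latter not called without PM replicate 1 (-0.97) or PM replicate 2 (-0.73). In B cells Tlr7 rose (1.40 ± 0.36, adjusted p = 0.0269), and it was not called without vehicle replicate 2 (0.82) or PM replicate 1 (1.30). The difference between the cell types was not tested.

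**Figure D5:**
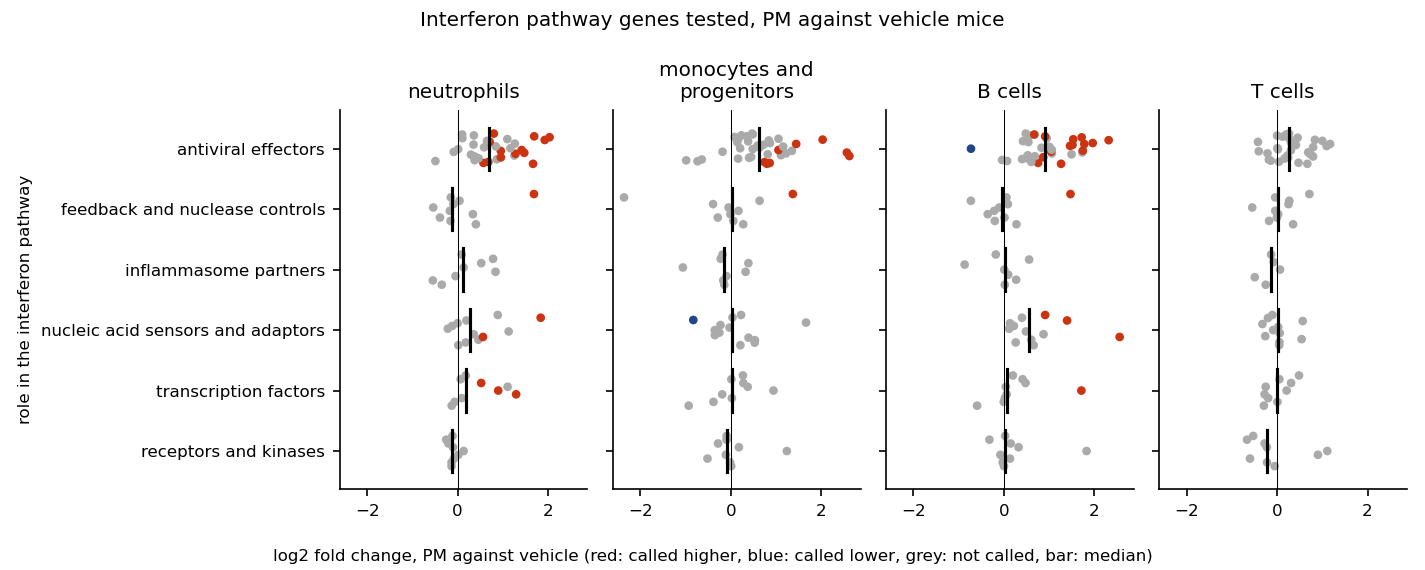
Log2 fold change with PM (x axis) of the interferon pathway genes by role (y axis) in 4 cell types, with 1 point per tested gene, the median as a bar, and genes called higher in red or lower in blue. The median of the antiviral effectors was 0.70 in neutrophils, 0.62 in monocytes, 0.91 in B cells and 0.27 in T cells, and that of the receptors and kinases was -0.11 in neutrophils and 0.03 in B cells.

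The genes most like the family in their pattern over the cell types were found by correlating log2(CPM + 1), averaged over the vehicle mice, across the 16 types for 7169 genes. The closest were Plekha1 (r = 0.936), Galnt11 (0.936), Zfp277 (0.927), Icam1 (0.919) and Lpxn (0.911). In the PM mice the same genes had r = 0.927, 0.896, 0.902, 0.912 and 0.781. Aim2 ranked 39 with r = 0.818 in the vehicle mice and 861 with r = 0.557 in the PM mice. The points are cell types of the same libraries and differ in depth, and the values are a description.

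Of 29 other genes within 500 kb, 18 are olfactory receptors, 14 had no UMI and 9 passed the filter on low counts in at least 1 type. Fcer1a, the high-affinity IgE receptor chain, reached 790 CPM in eosinophil and basophil progenitors, and it was not called with PM. The 4 neighbors called in any type were the PYHIN genes Aim2, Ifi205, Ifi208 and Ifi214.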

How the data were processed

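The authors aligned the reads with Cell Ranger 6.0.1, as the file headers give it, and deposited raw counts, UMIs in each cell for each gene with no scaling, in 1 library per mouse. The study's methods name GRCm38, the sample labels list GRCm39, and 32158 of the 32285 gene identifiers in the table were found in the GRCm38 annotation, whose coordinates are used.

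Cells needed 300 detected genes or more, and a mitochondrial share of no more than 20%. The 2500 variable genes, chosen without PYHIN genes, gave 30 principal components and Leiden clusters at resolution 1 (leidenalg), which were named from fixed markers. How strongly markers had to stand out for a name was decided with the clusters in view. Called doublets (simulated doublets, neighbor score) were kept, and leaving them out was an alternative. UMIs were summed per mouse and type and tested with edgeR 4.0.16 (TMM factors, filterByExpr, robust quasi-likelihood fit, Benjamini-Hochberg adjustment over all genes of a type), with calls at adjusted p under 0.05 and a log2 fold change over 0.5 in size. Cell types were compared in 1 fit over 4 mice, with mouse as a block. DESeq2 1.42.0 was an alternative. The fits were tested on simulated data with known changes.

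The 8 members and the gene lists were chosen with earlier results of these data known. The text names the members, the other PYHIN genes, the genes within 500 kb, the 5 genes most like the family, and per role of the pathway list in neutrophils, monocytes, B and T cells the called genes with the 3 largest changes and a mean of at least 20 CPM. Each group has 2 mice, so the p-values measure the spread between these mice, and an exact permutation test of 2 against 2 could not go below 0.333. Results for some genes are not reported here.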

Additional observations from a re-analysis of the deposited data

Results flagged for a closer look

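Ifi207 differed in direction between cell types, with every PM mouse on the opposite side of the vehicle mice. Its log2 fold change with PM was -0.26 in classical monocytes, 0.22 in cycling monocyte progenitors and 0.57 in non-classical monocytes. The non-classical value rested on 25 and 15 UMIs with vehicle and 12 and 13 UMIs with PM. Over all monocytes and their progenitors the log2 fold change was -0.27, against 0.87 in neutrophils and 1.29 in pDC. In neutrophils Ifi207 had 0.537 and 0.733 CPM with vehicle and 1.34 and 1.11 CPM with PM. In erythroid cells, taken as background without a test, it had 0.676 and 0.556 against 2.36 and 0.908 CPM. The value over all neutrophils is therefore not told apart from background. Mature neutrophils had 0.928 and 1.98 CPM with vehicle and 4.24 and 3.68 CPM with PM, above the erythroid value in each mouse. This rested on 15 and 16 UMIs with vehicle and 33 and 26 UMIs with PM. In the fit by stage it was called higher (1.58 ± 0.41), beside 9.75% of all genes. Immature neutrophils had 0.315 and 0.243 CPM against 0.643 and 0.370 CPM. The difference between the types was not tested.

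Ifi209 had a log2 fold change of -0.65 in early and 0.42 in mature B cells, again with no overlap between the groups in either stage. The summed p200 level of the PM mice was 0.824 times that of the vehicle mice in early B cells and 1.25 times in mature B cells. Of the 464 cells in the early B cluster with the highest summed level, 357 came from vehicle mice, and the part of this makeup in the result was not tested. The difference between the stages was not tested.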

How the results depend on the processing

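The members called higher with PM numbered 8, and 18 with no filter on low counts. Interferon pathway genes called higher numbered 69, and 165 with no filter. Those called lower numbered 2, with 11 when no filter was applied, 5 with DESeq2 and 4 at Leiden resolution 2. The members lower in a cell type than in the mean of the others numbered 21, and 11 at Leiden resolution 2. Leaving out 1 library gave 5 to 15 members called higher and 0 called lower with PM, 41 to 160 pathway genes higher and 3 to 31 lower, and 43 to 52 members higher and 5 to 21 lower between cell types. The cause was not tested in any of these. Over the alternatives for counts, 54 lay within 1.5 times the reported count and 18 did not, and a count holds no direction. Between cell types some called differences changed sign. Ifi211 in pDC, called higher, had a log2 difference of -0.51 at Leiden resolution 2. Ifi204 in the cluster named megakaryocytes went from -2.30 to 0.73 without vehicle replicate 2. Of the settings tried for the called members' fold changes, 89 moved by less than 1 SE and 7 by more, without a change of sign.

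No pairing of the mice by the replicate numbers of the labels was seen. Deviations of mice with the same number correlated at -0.23 to 0.14 over the types, median -0.03, with 2 types over 0.1. The paper describes its vehicle and PM samples as coming from 2 independent experiments, and the labels do not assign mice to experiments. With 2 mice per group this correlation cannot settle whether the mice were paired. With the replicate number as a block, 13 members and 113 pathway genes were called higher and 8 pathway genes lower. Depth limits the rarer members: 84 of the 128 pairs of member and type passed the filter on low counts.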

Other observations

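A cluster of 31 T cells led by Ifit1, with 7 and 2 cells from the vehicle mice and 12 and 10 from the PM mice, held the p200 genes at 4036 CPM, against 803 CPM in the 1595 other T cells. The level was 3959.7 and 3276 CPM in the vehicle mice and 4245 and 3952 CPM in the PM mice, and the remaining T cells had 947 and 708 CPM against 766 and 841 CPM. In this cluster Ifi206 reached 605 CPM against 90.4 CPM in the other T cells, and Ifi213 266 CPM against 47.3 CPM, whereas Ifi207 had no UMI in it and 1.63 CPM in the others. The cells were found by clustering on genes that include other interferon-induced genes, so these values are a description without a test.

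The 1953 cells left without a name held the p200 genes at 301 and 309 CPM in the vehicle mice and 460.2 and 452 CPM in the PM mice.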
